A study of Sus scrofa with 6 samples.

Results

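The long noncoding RNAs (lncRNAs) inside the HOXC cluster of the pig numbered 9 of the 7566 lncRNAs measured. They were chosen by position alone, as the transcripts on either strand of chromosome 5 whose listed start and end fall between 19151096 and 19268267 in the assembly Sscrofa11.1. This window of 117172 bp runs from the start of HOXC13 to the end of HOXC4 in RefSeq. RNA-seq was run on skin of 3 untreated female Bama pigs aged 2 years, cut to a depth of 8 mm. Every pig gave a white sample, of the back, and a black sample, of the buttock (n = 3 per skin). The site on the body thus changed along with the color of the skin, and the effects of each cannot be told apart. Replicate numbers are the numbers of the pigs.

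HOX genes encode homeodomain transcription factors that give cells their position along the body axis. In mammals they lie in 4 clusters, and the genes of a cluster are transcribed in the same direction, with the most posterior genes, which carry the highest numbers, at the 5′ end. Adult fibroblasts keep a HOX pattern that depends on the body site they come from. HOX clusters also give rise to many noncoding transcripts, several of them antisense to the HOX genes. In human, the antisense lncRNA HOTAIR lies between HOXC12 and HOXC11 and is known from fibroblasts of posterior and distal skin. Whether any of the pig transcripts described here is its counterpart was not tested.

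The text gives FPKM, the number of sequenced fragments that the authors scaled to transcript length and to the mapped fragments of the library. How many reads stand behind a value is unknown. The FPKM of the lncRNAs summed to between 8069 and 23094 per sample, and that of the mRNAs to between 408598 and 501424. Markers checked the labels. In 9 melanocyte genes matched of 10, the summed FPKM was 2.11 to 4.86 in white and 33.8 to 175 in black skin, and TYR, the rate-limiting enzyme of melanin synthesis, was listed at 0 in the 3 white samples and in black skin replicate 3 and was not called. In 6 matched of 10 genes of interfollicular keratinocytes it was 412 to 1114 in white and 858 to 1236 in black skin. Of 8 genes of skeletal muscle 3 were matched, and their sum was 962 to 1081 in white and 41.7 to 139 in black skin. DES, which smooth muscle also makes, held most of it, at 917 to 1052 FPKM in white and 40.2 to 134 in black skin. DES and CKM, the muscle creatine kinase, were called higher in white skin, while ACTA1, the skeletal actin, had 0.0298 to 1.77 FPKM in white and 0.0123 to 0.349 in black skin and was not called.

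The 9 transcripts fell into 5 loci, where a locus is a run of overlapping rows on one strand. None of the 9 was marked as a known transcript, and 8 were on the minus strand with 1 on the plus strand. Since HOXC13 has the lowest coordinate, the HOXC genes read along the plus strand, and the 8 minus-strand transcripts are antisense to them. The first locus lies in the interval of 11895 bp between HOXC12 and HOXC11 and holds TCONS_00080835 (chr5:19178434-19178784), TCONS_00080836 (chr5:19178434-19180155) and TCONS_00080837 (chr5:19178434-19181179). These share their lowest coordinate, differ in their highest, and fall inside the RefSeq lncRNA LOC110260667. On the minus strand, the lowest coordinate is the 3′ end of the listed span. The highest coordinate of TCONS_00080837 lies 400 bp below HOXC11. TCONS_00080842 (chr5:19212357-19212422) lies 67 bp below HOXC9. TCONS_00080843 (minus strand, chr5:19212489-19212809) and TCONS_00077896 (plus strand, chr5:19212489-19212692) share their lowest coordinate, the 3′ end of one and the 5′ end of the other. They cover the first bases of HOXC9, over 320 and 203 bp. The last locus lies between HOXC9 and HOXC8, inside the RefSeq lncRNA LOC106510294. It holds TCONS_00080844 (chr5:19219285-19221685), TCONS_00080845 (chr5:19219475-19221685) and TCONS_00080846 (chr5:19219285-19221711), and its highest coordinate lies 412 bp below HOXC8. No row touched the intervals between HOXC13 and HOXC12, HOXC11 and HOXC10, HOXC8 and HOXC6, HOXC6 and HOXC5 or HOXC5 and HOXC4.

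**Figure D1:**
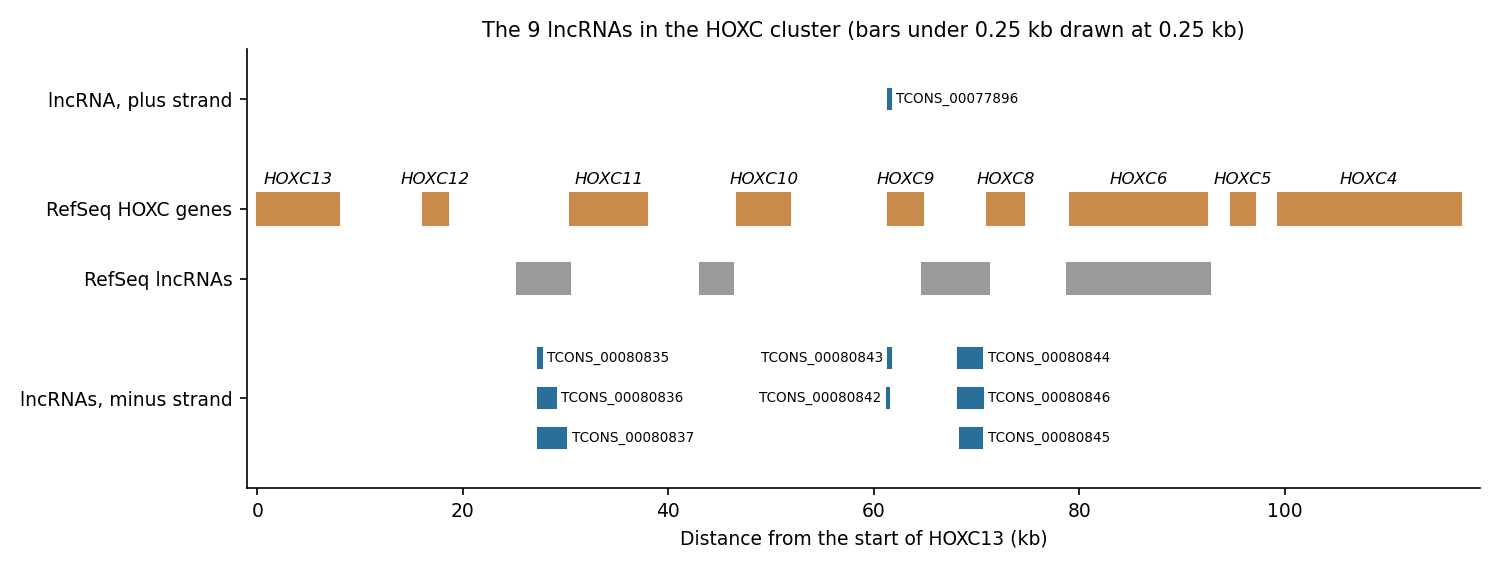
Map of the HOXC cluster, with the distance from the start of HOXC13 in kb on the x axis and, from top to bottom, the plus-strand lncRNA, the RefSeq HOXC genes, the RefSeq lncRNAs and the 8 minus-strand lncRNAs. The lncRNAs sit between HOXC12 and HOXC11, at the start of HOXC9, and between HOXC9 and HOXC8.

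The listed spans ran from 66 to 2746 bp. One, TCONS_00080842, was below the 200 bp by which lncRNAs are usually defined. Wider locus bounds, which could be compared for 6 of the 9, all begin before the listed start, so a listed span may be only part of a transcript. The loci, the distances to genes and the intervals without a row hold for the listed spans only. The nearest lncRNA rows outside the window were TCONS_00077879, which had 0.0662 ± 0.0897 FPKM (SD, n = 3) in white and 0.361 ± 0.392 in black skin, and TCONS_00080849, with 0.366 ± 0.608 and 0.130 ± 0.204.

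Levels differed widely within the cluster. TCONS_00080843, antisense at the start of HOXC9, had the highest mean FPKM over the 6 samples, 12.7, and stood at rank 65 of the 7566 lncRNAs. It was followed by TCONS_00080846 (3.63), TCONS_00080845 (2.01), TCONS_00080835 (1.92), TCONS_00080842 (1.11), TCONS_00077896 (0.542), TCONS_00080836 (0.394), TCONS_00080837 (0.254) and TCONS_00080844 (0.243), all means over the 6 samples. Each transcript overlapped the next one in this order in the range of its 6 samples. Over all lncRNAs the median of these means was 0.254 FPKM. Above 0.1 FPKM in every sample were 4 of the 9, TCONS_00080842, TCONS_00080843, TCONS_00080845 and TCONS_00080846, and 4 were listed at 0 in at least 1 sample.

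Differential expression was tested with limma on log2(FPKM + 0.1) over all lncRNAs with Benjamini-Hochberg (BH) adjustment, and a transcript was called differentially expressed at an adjusted p below 0.05 with an absolute log2 fold change above 1. Log2 fold changes are those of white minus black skin on this scale. They come out too small for transcripts of low FPKM. Of the 9 transcripts, 1 was called, TCONS_00080835, lower in white skin. Of all 7566 lncRNAs, 1.33% were called in either direction and 0.251% lower in white skin. When the fit was blocked on pig 3.21% were called, and TCONS_00080835 was again the 1 called of the 9. The log2 fold change was below 0 for 8 of the 9, against 53.5% of all lncRNAs, with a median of -1.06 over the 9 and -0.14 over all lncRNAs. Transcripts of 1 locus can share reads, so the 9 are not independent of each other. White was below black skin in each of the 3 pigs for 3 of the 9, TCONS_00080835, TCONS_00080837 and TCONS_00077896, against 10.5% of all lncRNAs.

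The antisense locus between HOXC12 and HOXC11 was nearly silent in the skin of the back and expressed in that of the buttock. TCONS_00080835 stood at 0, 0.0808 and 0 FPKM in the white skin of pigs 1, 2 and 3, and at 2.28, 7.43 and 1.72 FPKM in their black skin. The skins did not overlap, which was true of 12.2% of all lncRNAs, and TCONS_00080835 was the 1 such transcript of the 9. The authors kept lncRNAs above 0.1 FPKM in at least 1 sample, and TCONS_00080835 passed only through black skin. Its separation is to be read with that limit. Its log2 fold change was -4.71 (standard error 0.84, 95% interval -6.39 to -3.03, limma BH-adjusted p = 0.000285, and 4.82e-08 blocked on pig). The fold change depends on the pseudocount, and was -7.21 with 0.01 and -2.04 with 1, past the thresholds in both.

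The other transcripts of this locus were not called. TCONS_00080836 was listed at 0.156 FPKM in white skin replicate 3 and at 2.2 in black skin replicate 3, and at 0 in the other 4 samples, all those of pigs 1 and 2. TCONS_00080837 had 0, 0.246 and 0 FPKM in the white skin of pigs 1, 2 and 3 against 0.124, 0.519 and 0.633 in their black skin. The white sample of pig 2 thus stood above the black sample of pig 1. Their log2 fold changes were -1.06 (95% interval -3.42 to 1.3) and -1.63 (95% interval -3.80 to 0.55), each with a limma BH-adjusted p of 0.691. That of TCONS_00080836 turned to 0.45 without black skin replicate 3.

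The composition of the locus differed between pigs. TCONS_00080835 held 94.8% and 93.5% of the FPKM of the locus in black skin replicates 1 and 2 and 37.7% in replicate 3, where TCONS_00080836 held 48.4%. Summed over the 3 transcripts, the locus had 0, 0.327 and 0.156 FPKM in the white skin of pigs 1, 2 and 3, and 2.41, 7.95 and 4.55 FPKM in black skin. The lowest black sample lay above the highest white sample, which was true of this locus alone among the 5 and of 13.3% of all lncRNA loci. In a limma fit over 5820 lncRNA loci, of which 2.68% were called, the sum had a log2 fold change of -4.36 (standard error 0.70, limma BH-adjusted p = 1.22e-07). It was the 1 locus called of the 5.

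**Figure D2:**
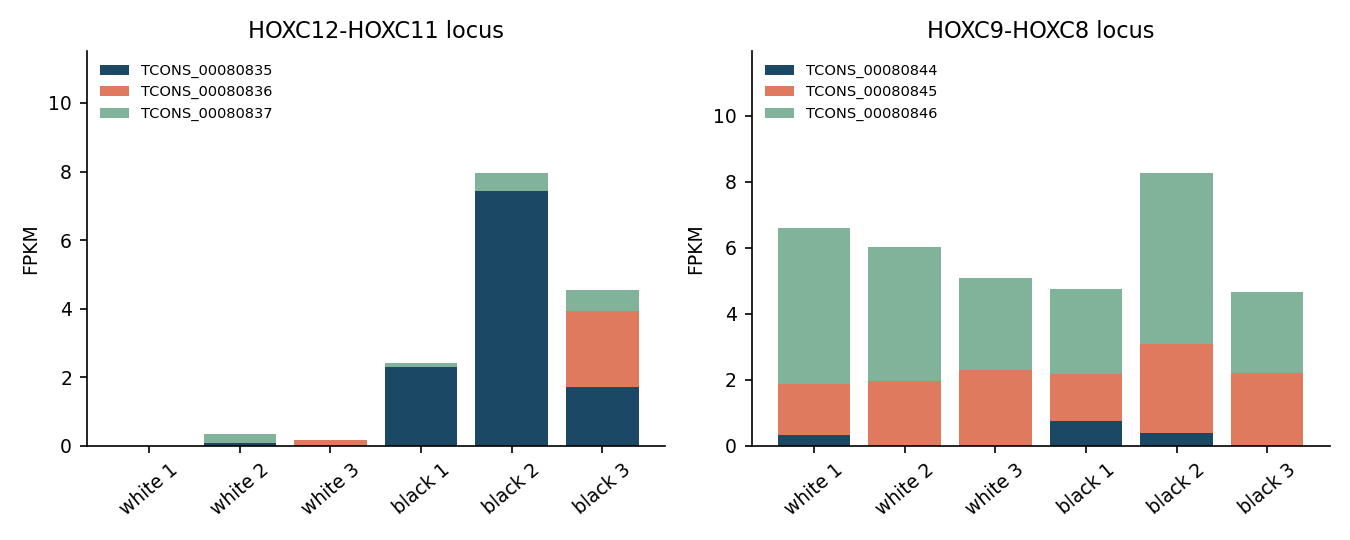
FPKM of the 3 transcripts of the HOXC12-HOXC11 locus (left) and of the HOXC9-HOXC8 locus (right), stacked, for each of the 6 samples. The left locus reaches at most 0.327 FPKM in white skin and at least 2.41 in black skin, while the right locus has similar totals in both skins.

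These p-values draw on the spread of all lncRNAs more than on the 6 samples, since 4 residual degrees of freedom stood beside 49.1 prior ones in the fit of transcripts and an unlimited number in that of loci. With 1 sample left out, the log2 fold change of TCONS_00080835 stayed between -5.12 and -4.09, but the call was lost. The adjusted p was then 0.512, 0.571 and 0.376 without white replicates 1, 2 and 3, and 0.367, 0.343 and 0.305 without black replicates 1, 2 and 3 (limma, BH-adjusted), with at most 5 of all lncRNAs called. The locus sum was not called either with 1 sample left out (log2 fold change -4.83 to -3.78, limma BH-adjusted p = 0.282 to 0.477).

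Around the start of HOXC9, the antisense TCONS_00080843 was present in every sample. It covers bases of HOXC9, and whether its FPKM used the strand of the reads is not known. If not, its level and its rank could include reads of the HOXC9 mRNA, which was not tested. Its FPKM was 12.8, 8.38 and 4.39 in white skin replicates 1, 2 and 3 and 11.2, 24.2 and 15.3 in black skin. The skins overlapped, because in pig 1 the white sample was above the black one. With a mean of 8.52 ± 4.21 FPKM (SD, n = 3) in white and 16.9 ± 6.64 in black skin, the log2 fold change was -1.04 (standard error 0.56, 95% interval -2.17 to 0.10) and was not called (limma BH-adjusted p = 0.691, and 0.414 blocked on pig).

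TCONS_00077896, on the plus strand over the same bases, was the one transcript of the cluster in the orientation of the HOXC genes. It had 0.0994, 0.144 and 0.493 FPKM in the white skin of pigs 1, 2 and 3 and 0.305, 0.720 and 1.49 in black skin. White was below black skin within each pig, while across pigs the white sample of pig 3 lay above the black sample of pig 1. The log2 fold change was -1.40 (standard error 0.89, 95% interval -3.19 to 0.39, limma BH-adjusted p = 0.691). Because it lies within HOXC9, its reads cannot be told apart from those of the HOXC9 mRNA, and whether the FPKM used the strand of the reads is not given in the sources used here.

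TCONS_00080842, the shortest span, had 0.969, 0.558 and 1.22 FPKM in white skin and 1.47, 2.2 and 0.238 in black skin replicates 1, 2 and 3. Black skin held both the highest and the lowest value, and the log2 fold change of -0.13 (95% interval -1.66 to 1.40) turned above 0 when the samples were scaled by the upper quartile of the mRNAs (0.06) and without white replicate 2, black replicate 1 or black replicate 2.

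The antisense locus between HOXC9 and HOXC8 showed no difference between the skins beyond the spread of its samples. Summed over its 3 transcripts the FPKM was 6.58, 6.03 and 5.06 in white skin replicates 1, 2 and 3 and 4.76, 8.25 and 4.64 in black skin. The mean was 5.89 ± 0.766 (SD, n = 3) in white and 5.88 ± 2.05 in black skin, and the log2 fold change of 0.05 (95% interval -1.0 to 1.09) was not called (limma BH-adjusted p = 0.970). The sign turned below 0 with upper-quartile scaling, with quantile normalization and without white replicate 1, black replicate 1 or black replicate 3.

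Within the locus, TCONS_00080846 was the main transcript in every sample, at 52.9% to 71.8% of the sum. Its FPKM was 4.72, 4.07 and 2.76 in white skin and 2.59, 5.18 and 2.45 in black skin, and it was the 1 of the 9 transcripts with a log2 fold change above 0 (0.22, 95% interval -0.98 to 1.42). TCONS_00080845 had 1.54 to 2.30 FPKM in white and 1.42 to 2.68 in black skin (log2 fold change -0.08, or 0.12 when scaled by the upper quartile of the mRNAs). In both skins pig 3 had the largest share of TCONS_00080845, 45.5% in white and 47.1% in black skin. TCONS_00080844 was listed at 0 in 3 samples, white skin replicates 2 and 3 and black skin replicate 3, and at 0.317, 0.752 and 0.390 FPKM in white replicate 1 and black replicates 1 and 2.

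**Figure D3:**
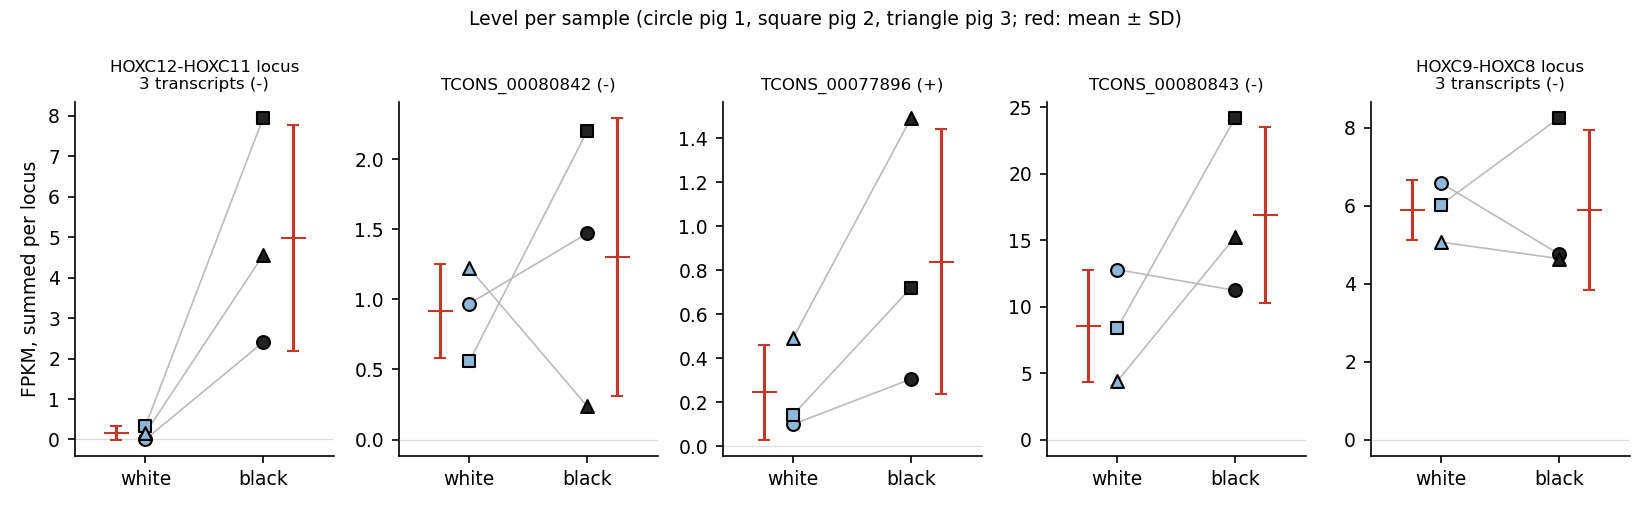
FPKM per sample of the 5 lncRNA loci, summed per locus, with white skin on the left and black skin on the right of each panel, lines joining the samples of a pig and red bars for the mean ± SD (n = 3). The skins are apart for the HOXC12-HOXC11 locus and overlap for the other 4.

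Summed by strand, the 8 minus-strand transcripts had 15.5 ± 4.76 FPKM (SD, n = 3) in white and 29.1 ± 12 in black skin. The skins overlapped, since white skin replicate 1 (20.3 FPKM) lay above black skin replicate 1 (19.9 FPKM). The exact permutation test, two-sided, gave p = 0.2, where 3 samples against 3 allow no p below 0.1, and 0.267 after Benjamini-Hochberg adjustment over 4 such tests. Without the HOXC12-HOXC11 locus, singled out by its call in these same data, the sums were 15.3 ± 4.84 and 24.1 ± 9.25 FPKM (exact permutation test, p = 0.3, adjusted p = 0.3). The plus-strand transcript gave p = 0.2 in the same exact permutation test (adjusted p = 0.267).

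As a share of all lncRNA FPKM of the cluster, the HOXC12-HOXC11 locus held 0%, 2.12% and 1.38% in white skin replicates 1, 2 and 3 and 11.9%, 18.3% and 17.4% in black skin. White and black skin were apart in this share (two-sided exact permutation p = 0.1, adjusted p = 0.267). The locus was singled out by its difference between the skins in these same data, so this test is no separate support. TCONS_00080843 held 38.8% to 62.6% in white and 55.7% to 58.3% in black skin, and was the largest part in every sample but white skin replicate 3. The HOXC9-HOXC8 locus held 32.2% to 44.7% in white and 17.7% to 23.6% in black skin. Its own mean was 5.89 FPKM in white and 5.88 in black skin. The sum of the cluster had means of 15.7 and 29.9 FPKM, so the share differs through the other transcripts.

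Of the 9 HOXC mRNAs, 8 were matched in the mRNA table, and HOXC12 was not analysed here. They were tested with limma on log2(FPKM + 0.5) over all 14900 mRNAs, of which 6.24% were called. HOXC10, a posterior HOX gene of the lumbar and hindlimb region, was the 1 called of the 8. Its FPKM was 0.0425, 0.215 and 0.0532 in white skin replicates 1, 2 and 3 and 2.08, 2.82 and 4.19 in black skin. The skins did not overlap, which was true of 35.3% of all mRNAs. HOXC10 passed the authors' limit of 0.5 FPKM only through black skin. The log2 fold change was -2.52 (standard error 0.32, limma BH-adjusted p = 0.0113, and 0.0138 blocked on pig). Without white skin replicate 2 it was -2.64 and was no longer called (limma BH-adjusted p = 0.0537). HOXC10 is the second HOXC gene above the called lncRNA locus in coordinate, with HOXC11 between them.

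HOXC11, the gene next to the locus, had 0.300, 0.455 and 0.229 FPKM in white skin and 0.0972, 0.853 and 0.773 in black skin, where black replicate 1 had the lowest value of the 6 samples. Its log2 fold change was -0.29 (95% interval -1.14 to 0.55, limma BH-adjusted p = 0.612), and turned to 0.03 with quantile normalization. HOXC13, a regulator of hair keratin genes, had 1.07, 0.539 and 2.66 FPKM in white skin and 14.3, 1.92 and 2.06 in black skin (log2 fold change -1.38, limma BH-adjusted p = 0.248). Its highest value was in black replicate 1, where HOXC11 was lowest. The summed FPKM of 14 matched of 18 hair follicle genes was also highest in that sample, at 11117, against 255 and 479 in the other black samples and 0.677 to 195 in white skin. All 14 had a log2 fold change below 0, with a median of -3.14, against -0.31 over all mRNAs. Of the 14, 0 were called, against 6.24% of all mRNAs, and 7 when blocked on pig, against 9.66%.

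HOXC9, which shares its first bases with TCONS_00080843 and TCONS_00077896, had 2.21, 1.51 and 2.82 FPKM in white skin and 3.19, 4.10 and 5.36 in black skin. The skins did not overlap, as for 35.3% of all mRNAs, and the log2 fold change of -0.82 (standard error 0.31) was not called (limma BH-adjusted p = 0.134, and 0.0980 blocked on pig). HOXC8 had 4.77 ± 0.807 FPKM (SD, n = 3) in white and 4.47 ± 0.636 in black skin (log2 fold change 0.08, or -0.04 without white skin replicate 1). HOXC6 had 4.12 ± 0.572 and 5.19 ± 2.40 FPKM (SD, n = 3), with a log2 fold change of -0.23 that turned to 0.14 with quantile normalization and to 0.09 without black skin replicate 3.

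At the anterior end of the cluster the direction was the other one, with no call. HOXC5 had 1.77, 1.63 and 0.891 FPKM in white skin and 0.677, 0 and 0.877 in black skin (log2 fold change 1.02, 95% interval 0.02 to 2.01, limma BH-adjusted p = 0.168). Its skins did not overlap, as for 35.3% of all mRNAs. HOXC4 had 2.87, 2.17 and 2.26 FPKM in white skin and 0.903, 2.23 and 0.916 in black skin (log2 fold change 0.73, limma BH-adjusted p = 0.201). No lncRNA row lies in this end of the cluster.

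**Figure D4:**
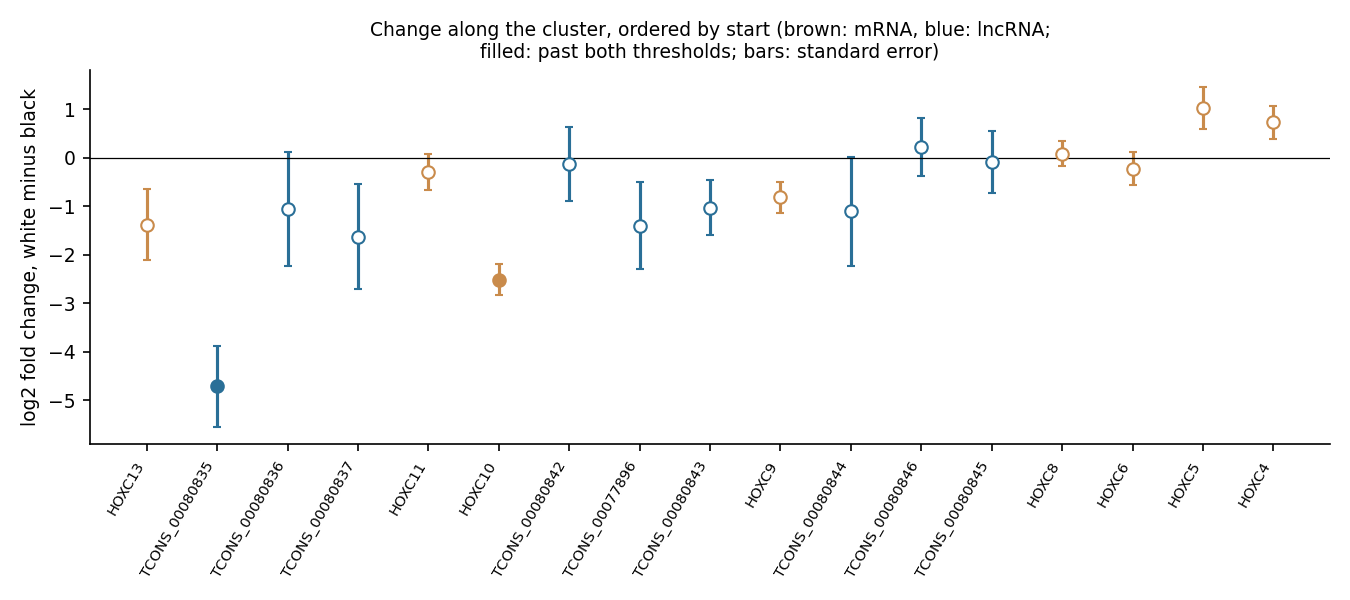
Log2 fold change (white minus black skin) with its standard error for the 8 HOXC mRNAs (brown) and the 9 lncRNAs (blue), ordered along the x axis by start from HOXC13 to HOXC4; filled points passed both thresholds. The filled points are TCONS_00080835 at -4.71 and HOXC10 at -2.52.

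Levels of neighbours were compared across the 6 samples as a description, since the samples share pigs and skins. TCONS_00080843 and HOXC9 had a Pearson r of 0.50 and a Spearman rho of 0.66 on the log2 scale. Over the 4 samples left without the 2 farthest from the median of TCONS_00080843, r was 0.85. The skins did not overlap in HOXC9, so an r over both skins includes the difference between them. Within white skin, replicate 3 had the highest HOXC9 (2.82 FPKM) and the lowest TCONS_00080843 (4.39 FPKM). Both cover the same bases, so reads of HOXC9 could enter both values if the strand was not used. For the HOXC9-HOXC8 locus and HOXC8, r and rho were 0.02 and 0.20, and r was -0.11 over 4 samples. For the HOXC12-HOXC11 locus the skins form separate clusters, so no r is given. The 2 tables may have been scaled separately, which bears on levels set side by side and may bear on these correlations. The scaling of samples also moved the fold changes of the lncRNAs. With the upper quartile of the mRNAs, the log2 fold change of TCONS_00080843 was -0.82, against -1.04 as given.

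Among 12554 mRNAs with a mean of at least 1 FPKM, those most like TCONS_00080843 over the 6 samples on the log2 scale were ENSSSCG00000021222, ENSSSCG00000035337 and ENSSSCG00000019956 (r = 0.998, 0.992 and 0.990), for which no symbol was found. Those most like TCONS_00080846 were RPL3, MED22 and TIMM29 (r = 0.989, 0.987 and 0.978), a ribosomal protein, a Mediator subunit and a mitochondrial import factor. Among 983 other lncRNAs at that level, TCONS_00061701, TCONS_00082001 and TCONS_00092219 were most like TCONS_00080843 (r = 0.984, 0.979 and 0.963), and TCONS_00067527, TCONS_00073359 and TCONS_00049376 most like TCONS_00080846 (r = 0.979, 0.974 and 0.969). With 6 samples and this many rows, high values of r are found by the search itself.

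The HOX genes of the other clusters were read from the same mRNA fit. Of 30 genes 20 were matched, 4 were called lower in white skin, against 3.62% of all mRNAs, and none higher, and their median log2 fold change was -0.72, against -0.31 over all mRNAs. The 4 were HOXA9, HOXA10, HOXA11 and HOXD3. HOXA9 had 4.81 ± 1.21 FPKM (SD, n = 3) in white and 35.5 ± 16 in black skin (log2 fold change -2.7, limma BH-adjusted p = 0.0124). HOXA10 had 0.196 ± 0.238 and 5.18 ± 3.05 FPKM (SD, n = 3) (log2 fold change -2.90, limma BH-adjusted p = 0.0231). Blocked on pig, 5 were called, with HOXA5 as the added one, against 9.66% of all mRNAs.

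HOX clusters are kept silent by Polycomb repressive complex 2 (PRC2), which methylates histone H3 at lysine 27, and are kept active by MLL complexes, which methylate it at lysine 4. Of 11 PRC2 genes 10 were matched, 1 was called higher and none lower in white skin, against 6.24% of all mRNAs called in either direction. The called gene was RBBP7, a histone-binding subunit shared with other complexes, at 88.3 ± 19.8 FPKM (SD, n = 3) in white and 27.1 ± 3.47 in black skin (log2 fold change 1.67, limma BH-adjusted p = 0.0137). Blocked on pig 2 were called, against 9.66% of all mRNAs, the added one being EZH1, a methyltransferase of the complex, at 3.04 ± 0.508 FPKM (SD, n = 3) in white and 9.96 ± 6.56 in black skin (log2 fold change -1.39, limma BH-adjusted p = 0.0860, and 0.0449 blocked on pig). EZH2, the other methyltransferase, had 8.58 ± 1.13 and 8.63 ± 2.79 FPKM (SD, n = 3), with a log2 fold change of 0.03. Of the 9 MLL and H3K27 demethylase genes, all matched, none was called in either fit, which is to be read against the same shares of all mRNAs. The log2 fold change was below 0 for 8 of the 9. KMT2A, the MLL1 methyltransferase, had 1.95 ± 0.549 and 4.52 ± 1.18 FPKM (SD, n = 3), with a log2 fold change of -1.03 (limma BH-adjusted p = 0.0770). DPY30 went the other way, at 75.5 ± 4.31 and 43.5 ± 3.07 FPKM (SD, n = 3). Its log2 fold change of 0.79 was under the threshold for a call (limma BH-adjusted p = 0.0460). The summed FPKM of the 9 was 105 to 111 in white and 90.3 to 96.5 in black skin.

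Markers of other cells moved with the skins beside the HOXC12-HOXC11 locus and HOXC10. The summed FPKM of 10 fibroblast genes was 2319 to 4886 in white and 6137 to 10418 in black skin, and 4 of them (FBLN1, PDGFRB, DCN and MFAP5) were called lower in white skin, against 3.62% of all mRNAs. That of 8 adipocyte genes was 167 to 564 and 846 to 2040, with 5 called lower in white skin. Of the 8, 7 had a log2 fold change below 0, and PPARG had one of 0.34 and was not called. The summed FPKM of 4 matched of 6 endothelial genes was 29.1 to 33.6 in white and 73.2 to 156 in black skin, with 3 called lower in white skin. Blocked on pig, 6 fibroblast, 6 adipocyte and 4 endothelial genes were called, against 9.66% of all mRNAs in either direction. No fibroblast, adipocyte or endothelial marker was listed at 0 in a whole group. In bulk skin, fewer cells of a type and less RNA per cell cannot be told apart, and the part of these cells in the result was not tested. The sum of 6 leukocyte genes was 13.2 to 293 in white and 24.9 to 77.6 in black skin. LYZ held most of it in white replicates 1 and 3, at 275 and 149 FPKM. The log2 fold change was below 0 for 4 of the 6 and above 0 for LYZ and MS4A1. CD68 alone was called, lower in white skin (log2 fold change -1.75, limma BH-adjusted p = 0.0417), also when blocked on pig.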

How the data were processed

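The authors made strand-specific poly(A) libraries, aligned the reads to Sscrofa11.1 with TopHat per the paper (the submitters' processing notes list HISAT2 2.0.4), assembled lncRNAs, removed coding transcripts and calculated FPKM with StringTie 1.3.3. The deposited FPKM were used as given. They hold no counts, so depth is unknown and no counting interval was computed. The authors kept lncRNAs above 0.1 FPKM and mRNAs above 0.5 FPKM in at least 1 sample.

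All 7566 lncRNAs, 5820 lncRNA loci and 14900 mRNAs were fitted with limma 3.58.1 (trend option) in R 4.3.3, with pseudocounts of 0.1 and 0.5 and Benjamini-Hochberg adjustment, and with no term for the pig, as the study did. Single values were tested by exact permutation in Python 3.11.15 with SciPy 1.17.1. The titles give the white and black samples of a pig the same number. Within pigs, the deviations of samples from their group means correlated at 0.101 to 0.148 across lncRNAs and 0.204 to 0.360 across mRNAs, so a fit blocked on pig (paired samples) is given beside the counts and calls of the report that it changes.

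Symbols were found for 12236 of 14900 mRNAs (82.1%) in the Ensembl name table, and positions in RefSeq for Sscrofa11.1. Named are the 9 lncRNAs, the HOXC mRNAs, the 3 lncRNAs and 3 mRNAs most like each of the 2 most abundant members, and 2 to 4 examples per list. The examples were chosen after their values were seen. The members and lists were chosen with earlier results of these data known. No sequence is shown, since the genome was not used here.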

Additional observations from a re-analysis of the deposited data

How the results depend on the processing

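The direction of TCONS_00080835, of its locus and of HOXC10 stayed the same under every alternative run. TCONS_00080835 and its locus passed the thresholds under 8 of 8 alternatives that kept the 6 samples (adjusted p of at most 0.0371 and 0.0394 from limma, the latter without the trend) and under none of 6 that left out a sample, where the count of HOXC lncRNAs and of HOXC loci called ranged from 0 to 0 and the locus had an adjusted p of 0.282 to 0.477. HOXC10 passed under 7 of 7 and 5 of 6, the count of HOXC mRNAs ranging from 0 to 1. Over all features, limma called 101 lncRNAs, 156 loci and 930 mRNAs. With the pig as a replicate block (paired fit) these were 243, 240 and 1439, and the block changed no call among the HOXC lncRNAs, their loci and the HOXC mRNAs. Without the trend 12 lncRNAs and 24 loci were called, with a pseudocount of 0.01 31 and 78, and with 1 19 and 92. Leaving out a sample gave 0 to 5 lncRNAs, 0 to 4 loci and 35 to 847 mRNAs. Without white replicate 1 and without black replicate 2 no lncRNA was called by limma, while 496 and 539 had p below 0.05 before adjustment; for loci, 0 were called without white replicate 1 (400 before adjustment) and without black replicate 1 (501). The prior degrees of freedom for lncRNAs fell from 49.1 to between 1.53 and 2.35 with a sample left out.

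Log2 fold changes that turned sign belonged to values that were not called. With the upper quartile of the mRNAs, TCONS_00080842 (also as a locus) was 0.056 and TCONS_00080845 0.12. The HOXC9-HOXC8 locus was -0.048 with upper-quartile scaling and -0.085 with quantile normalization, where HOXC11 was 0.031 and HOXC6 0.14. Leaving out each sample in turn gave -1.81 to 0.45 for TCONS_00080836, -0.96 to 0.42 for TCONS_00080842, -0.33 to 0.11 for TCONS_00080845, -0.097 to 0.31 for the HOXC9-HOXC8 locus, -0.037 to 0.18 for HOXC8 and -0.47 to 0.091 for HOXC6. The r of the HOXC9-HOXC8 locus with HOXC8 was -0.0095 on FPKM with no log. The causes were not tested. The scaling of loci by the upper quartile of the mRNAs was chosen after seeing the data. Without counts, the precision of low FPKM cannot be given.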
